A study of Mus musculus with 4 samples.

Results

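The 9 genes described here encode the subunits of inhibin and activin, the proteins that bind activin outside the cell, and the receptors that read it. They were taken by name from the 32285 genes in the count matrices: Inha, Inhba and Inhbb for the subunits, Fst and Fstl3 for the binding proteins, Acvr2a, Acvr2b and Acvr1b for the receptors, and Tgfbr3 for the co-receptor. All 9 had UMIs in each of the 4 matrices, 1824546 UMIs in all. Whole ovaries of 8-week-old female littermates, reported to be in estrus, were profiled with a 3′ single-cell kit, in 2 libraries from Fosl2flox/flox mice (Fosl2F/F) and 2 from Cyp19a1-Cre; Fosl2flox/flox mice (Fosl2cKO). Both groups carry the floxed allele, and the Fosl2F/F mice lack the Cre. Cyp19a1, whose regulatory sequence drives the Cre, is the aromatase gene of granulosa cells (GCs), so the deletion is aimed at GCs that express it. The sample size given for the experiment equals the number of libraries per group, but it is not stated whether a library holds 1 mouse or several, and p-values therefore measure the spread between libraries.

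Inhibin is a dimer of the alpha subunit (Inha) with a beta subunit, beta A (Inhba) or beta B (Inhbb), and activin is a dimer of beta subunits alone. Activin binds the type II receptors Acvr2a or Acvr2b, which then recruit the type I receptor Acvr1b and lead to phosphorylation of Smad2 and Smad3. Follistatin (Fst) and the related Fstl3 bind activin and keep it from its receptors, and betaglycan (Tgfbr3) holds inhibin on the type II receptors, so that activin is displaced. In the ovary the GCs of growing follicles are the known source of inhibin, which lowers the release of FSH by the pituitary.

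The region around the start of each subunit gene is shown first, because the levels of the 3 subunit genes followed each other over the cell classes (Pearson's r of 0.903 for Inha with Inhba and 0.941 for Inhba with Inhbb over 21 class means of log2(CPM + 1)), while no motif searched for was found in more than 1 of their start regions. RefSeq start regions (250 bases before the start site and 50 after it) were at hand for 7 of the 9 genes in the GRCm38.p6 table of 32851 regions; Fst and Tgfbr3 had no entry. Capitals mark the matches found: CCAAT read on the opposite strand in Inha, TATAAA in Inhba, and the GC box GGGCGG read on the opposite strand in Inhbb. All 3 are written 5′ to 3′ along the gene.

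Inha, chr1:75507359-75507658, plus strand: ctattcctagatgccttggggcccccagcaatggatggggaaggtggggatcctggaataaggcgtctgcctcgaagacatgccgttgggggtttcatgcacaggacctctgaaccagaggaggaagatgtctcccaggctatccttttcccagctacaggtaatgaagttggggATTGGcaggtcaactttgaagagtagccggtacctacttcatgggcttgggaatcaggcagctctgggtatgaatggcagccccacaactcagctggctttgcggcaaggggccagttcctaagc

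Inhba, chr13:16011601-16011900, plus strand: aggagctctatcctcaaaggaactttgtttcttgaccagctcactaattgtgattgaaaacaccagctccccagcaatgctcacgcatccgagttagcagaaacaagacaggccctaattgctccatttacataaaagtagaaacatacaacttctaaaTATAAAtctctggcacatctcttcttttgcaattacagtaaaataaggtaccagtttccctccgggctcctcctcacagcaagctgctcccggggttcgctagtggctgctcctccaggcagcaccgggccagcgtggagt

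Inhbb, chr1:119422199-119422498, minus strand: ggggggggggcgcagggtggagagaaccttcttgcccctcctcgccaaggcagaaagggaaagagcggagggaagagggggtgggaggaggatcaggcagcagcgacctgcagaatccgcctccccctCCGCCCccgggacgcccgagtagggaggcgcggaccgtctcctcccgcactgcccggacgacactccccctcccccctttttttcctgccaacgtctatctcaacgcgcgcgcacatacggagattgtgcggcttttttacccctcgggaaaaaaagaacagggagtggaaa

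The CCAAT match in Inha began 75 bases before the start site, the TATAAA match in Inhba 91 bases before it, and the GC box in Inhbb 122 bases before it. CCAAT was found on either strand in 37.41% of all the regions, TATAAA in 13.62% and GGGCGG in 35.66%. Inhbb held 23 CG dinucleotides, against 5 in Inha, 7 in Inhba and a median of 7 over all regions. The receptor genes held more, with 54 in Acvr2a, 27 in Acvr2b and 51 in Acvr1b, and each of them held at least 3 GC boxes. None of the 7 regions held the AP-1 letters TGANTCA (7.808% of all regions), the cyclic AMP response element TGACGTCA (1.79%) or its variant TGCGTCA (2.116%), the NR5A letters AAGGTCA (4.718%), the GATA letters TGATAA (9.053%) or the Smad palindrome GTCTAGAC (0.2131%), on either strand. These are letter matches in 300 bases, and they say nothing about binding.

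In GENCODE M21 (GRCm38), Inha (ENSMUSG00000032968) lies on chromosome 1 from 75507077 to 75510366 and Inhbb (ENSMUSG00000037035) on the same chromosome from 119415465 to 119422248 on the minus strand. Inhba (ENSMUSG00000041324) and Fst (ENSMUSG00000021765) share chromosome 13, from 16011851 to 16031621 and from 114452290 to 114458951. RefSeq places the start of Inha inside the GENCODE gene, so its window lies wholly inside that gene model. Sequence upstream of the GENCODE start of Inha was therefore not searched for motifs.

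After filtering, 41538 cells remained, 6760 to 19575 per library, with 104303269 to 111314200 UMIs per library. The library Fosl2F/F 2 stood apart: it held the most cells and a median of 3655 UMIs per cell, against 11177 to 12465 in the others. Libraries shared 10 to 38 cell barcodes per pair. Clusters were named from marker genes, none of which is one of the 9, and the 9 genes were left out of the clustering. This gave 15232 GC-like cells, divided into mural-like cells (2866, led by Lhcgr and Prlr), cumulus-like cells (3293, Itga6 and Gatm), growing follicle-like cells (1719, Amh and Cited1), mitotic-like cells (3148, Top2a and Ube2c), glycolytic antral-like cells (1830, Cox4i2 and Ndufa4l2), atretic-like cells (2110, Ghr and Itih5) and an unnamed cluster of 266. Another 12 cell types were named, and clusters 8, 17 and 19 stayed unnamed. Levels are in CPM, the UMIs of a gene per 1000000 UMIs of that class in that library. One UMI stands for 1 captured molecule at its 3′ end, so levels of different genes are set side by side without a correction for length.

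Fosl2, the targeted gene, had 161, 167, 168 and 115 CPM in GC-like cells of Fosl2F/F 1, Fosl2F/F 2, Fosl2cKO 1 and Fosl2cKO 2, which is the order used for all values below. The library labelled Fosl2cKO 1 thus lay at the level of the Fosl2F/F libraries. The loxP sites are described as flanking the coding exons. Whether the 3′ end that the kit counts lies inside the deleted part is not given, so how far these counts check the label of that library was not settled. The groups are named by their labels, and each direction by genotype below rests on them. Cyp19a1 itself was uneven over the GC-like states, with 238 ± 197 CPM in mural-like, 107 ± 96.2 in mitotic-like and 82.0 ± 60.5 in glycolytic antral-like cells, against 11.2 ± 6.10 in growing follicle-like, 7.47 ± 2.52 in atretic-like and 5.49 ± 3.21 in cumulus-like cells (SD, n = 4). Cyp19a1 is also a marker that named mural-like cells, so its high level there is partly set by the naming.

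Inha, the alpha subunit, was the most abundant of the 9 genes in every GC-like state. It was highest in mural-like cells, with 12735, 8749, 6783 and 6787 CPM (8763 ± 2805, SD, n = 4). Glycolytic antral-like cells came next (6724 ± 1923) and mitotic-like cells after them (5696 ± 1670), and within each library the order mural, glycolytic antral, mitotic was the same, although the ranges over libraries overlapped. Growing follicle-like cells (3523 ± 292), atretic-like cells (2748 ± 228) and cumulus-like cells (1222 ± 247) followed without overlap of their ranges. The mural-like level was 7.05-fold the cumulus-like level, from 2.36 to 3.14 on the log2 scale in the 4 libraries.

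Inhba, the beta A subunit shared by activin A and inhibin A, had a far wider range. Mural-like cells held 5661, 3342, 2892 and 3370 CPM (3816 ± 1249). Cumulus-like cells held 62.2, 31.1, 20.4 and 13.6 CPM. The cumulus-like level (mean 31.8) was no higher than that of classes outside GC-like cells, such as macrophage-like (36.5 CPM) and stromal-like cells (36.0 CPM). How much of so low a level is free RNA was not tested, which limits the difference measured from it. The mean log2 difference was 7.09 ± 0.63 (SD, n = 4 libraries), from 6.51 to 7.95, and 6.36 with doublets kept, and every library of mural-like cells lay above every library of cumulus-like cells. Between these lay glycolytic antral-like (2031 ± 1018), mitotic-like (1514 ± 930), atretic-like (369 ± 76.0) and growing follicle-like cells (156 ± 84.1). In each of the 4 libraries mural-like cells were above glycolytic antral-like cells, and these above mitotic-like cells, but the ranges of these neighbours overlapped.

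Inhbb, the beta B subunit, had another order. Glycolytic antral-like cells were highest, with 1560, 1114, 1039 and 1386 CPM (1275 ± 242). Mitotic-like cells held 1149 ± 231 CPM and mural-like cells 1048, 909, 707 and 1366 CPM (1008 ± 277). The mural-like level was below the glycolytic antral-like level in all 4 libraries, by 0.36 ± 0.26 on the log2 scale, and above the mitotic-like level in 1 of 4, and the ranges of these 3 states overlapped. Growing follicle-like (240 ± 205), atretic-like (106 ± 24.1) and cumulus-like cells (57.8 ± 9.35) were lower.

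**Figure D1:**
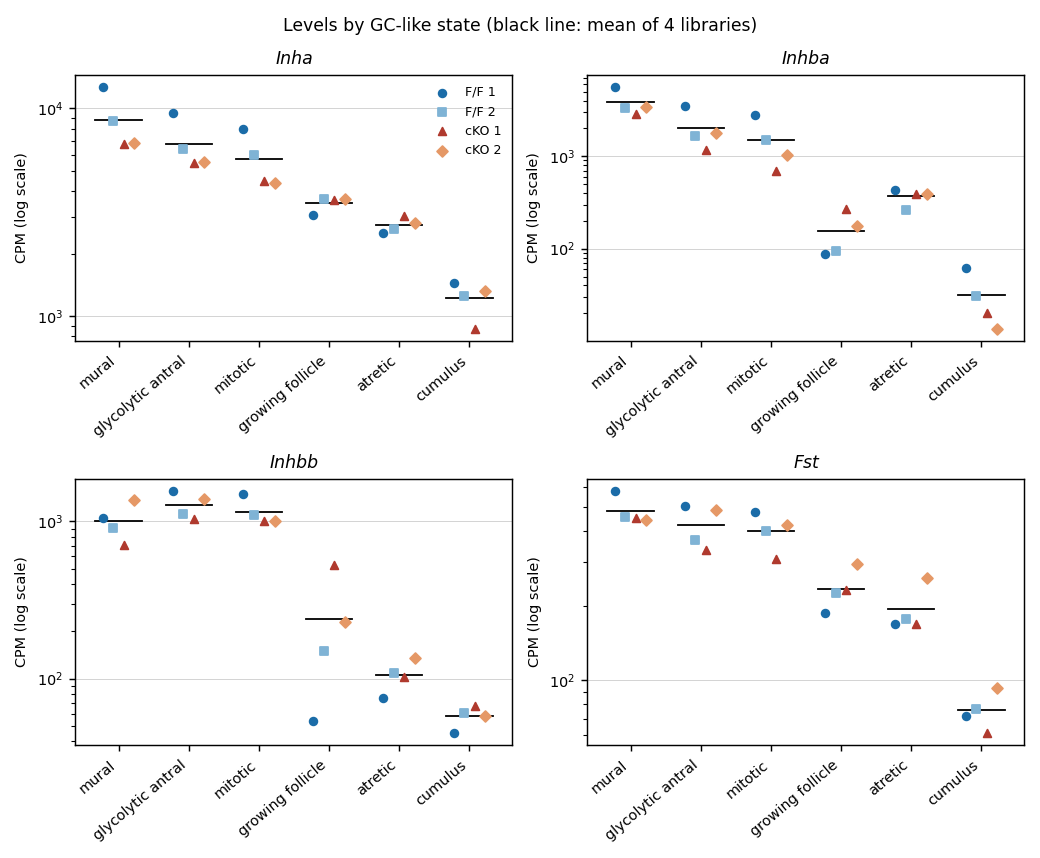
Levels of Inha, Inhba, Inhbb and Fst in CPM on log axes, by GC-like state, with 1 point per library and a black line at the mean of 4 libraries. Inhba spans from 13.6 to 5661 CPM while Fst spans from 61.3 to 579, and the Inhbb points of growing follicle-like cells run from 53.9 to 529.

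The share of beta subunit UMIs that came from Inhbb therefore changed with state. It was 21.4 ± 5.54% in mural-like and 22.7 ± 6.39% in atretic-like cells, 40.4 ± 7.0% in glycolytic antral-like and 46.3 ± 10.5% in mitotic-like cells, and 55.6 ± 12.5% in growing follicle-like and 66.5 ± 17.5% in cumulus-like cells (SD, n = 4). In cumulus-like cells the share ran from 42% in Fosl2F/F 1 to 81.0% in Fosl2cKO 2, on few UMIs and with Inhba at the level of non-GC classes. Alpha UMIs exceeded the sum of the beta UMIs in every state and library: by 1.82 ± 0.27 to 1 in mural-like, 2.10 ± 0.33 in glycolytic antral-like, 2.23 ± 0.33 in mitotic-like and 5.88 ± 0.96 in atretic-like cells. In cumulus-like cells the ratio was 13.9 ± 3.49, and in growing follicle-like cells it was 21.8, 15.1, 4.58 and 9.11, higher in both Fosl2F/F libraries than in both Fosl2cKO libraries.

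To compare single cells at 1 depth, each cell was thinned to 2000 UMIs, which left out 6.17%, 20.3%, 4.28% and 4.23% of the cells. Of the thinned mural-like cells, 96.8 ± 2.77% held Inhba and 71.1 ± 7.81% held Inhbb, and 69.9 ± 8.09% held both. Glycolytic antral-like cells held both in 74.6 ± 15.8% and mitotic-like cells in 51.7 ± 13.8%. Macrophage-like cells had Inhba in 5.98 ± 4.27% and Inhbb in 4.41 ± 2.95% and serve as a reference outside GC-like cells. Whether these shares are free RNA or their own was not tested. Cumulus-like cells, with Inhba in 5.42 ± 4.55%, lay at that reference, while their Inhbb share of 10.2 ± 2.48% lay above it in 3 of 4 libraries. Their Inhbb level (57.8 CPM) was not above that of every class outside GC-like cells, as B lymphocyte-like cells held 57.1 CPM. Before thinning, the share of cells with Inhba was 99.2% among mural-like cells, 22.4% among cumulus-like cells and 17.9% among macrophage-like cells (means of 4 libraries), at median depths of 4257 to 16371, 3345 to 12693 and 2284 to 8260 UMIs per cell.

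**Figure D2:**
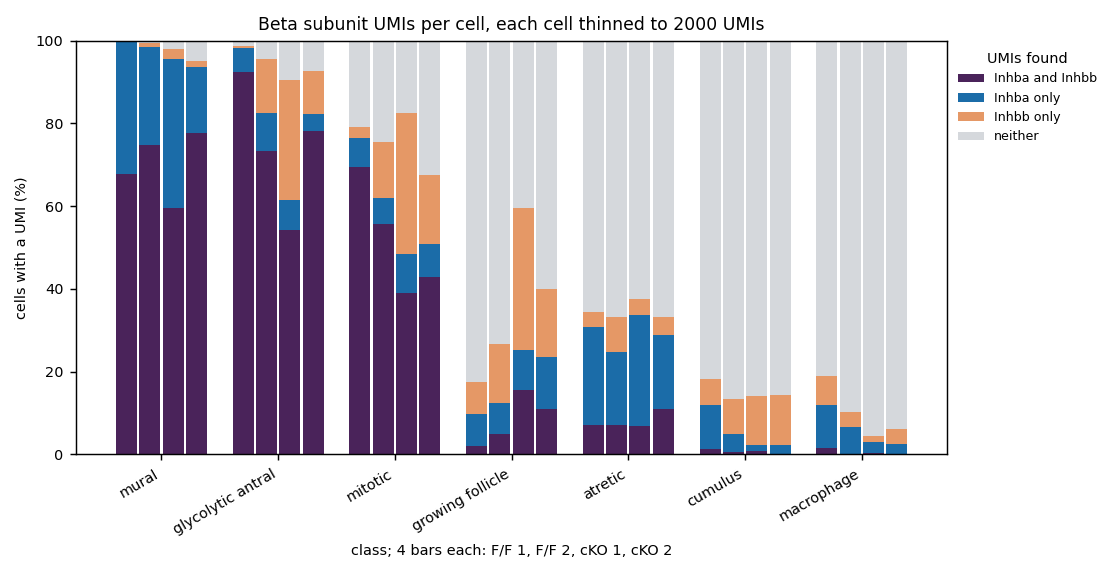
Share of cells (%) with UMIs of both beta subunit genes, of Inhba only, of Inhbb only or of neither, in 6 GC-like states and in macrophage-like cells as a reference, after thinning each cell to 2000 UMIs, with 4 bars per class for Fosl2F/F 1, Fosl2F/F 2, Fosl2cKO 1 and Fosl2cKO 2. Mural-like cells with Inhbb only are rare (1.22% on average), and in growing follicle-like cells the share with neither gene falls from 82.5% in Fosl2F/F 1 to 40.4% in Fosl2cKO 1.

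Fst, the activin-binding follistatin, followed Inha more closely than the beta subunits. It was highest in mural-like cells, with 579, 454, 452 and 444 CPM (482 ± 64.5), and the ranges of the glycolytic antral-like (422 ± 83.6) and mitotic-like (401 ± 69.5) levels overlapped with it. Mural-like cells were above glycolytic antral-like cells in 3 of 4 libraries and above mitotic-like cells in 4 of 4. Growing follicle-like (234 ± 43.8) and atretic-like cells (193 ± 44.1) held less and overlapped with each other. Cumulus-like cells held 75.8 ± 13.3 CPM, a difference from mural-like cells of 2.68 ± 0.34 on the log2 scale. Inha UMIs per Fst UMI stayed between 14.2 ± 2.71 in mitotic-like and 17.9 ± 3.37 in mural-like cells over the 6 states, whereas beta subunit UMIs per Fst UMI ran from 1.22 ± 0.33 in cumulus-like to 9.90 ± 1.58 in mural-like cells. Among mitotic-like cells thinned to 2000 UMIs, Fst was found in 56.5 ± 9.14% of cells with Inhba and in 38.2 ± 7.11% of cells without it, with the narrowest gap in Fosl2cKO 1 (43.5 against 38.5%). In atretic-like cells the shares were 36.2 ± 8.15% and 25.8 ± 3.81%, and in glycolytic antral-like cells 54.9 ± 8.19% and 46.8 ± 1.15% (4 and 3 libraries, reversed in Fosl2cKO 1). There was little or no gap in growing follicle-like cells (37.8 ± 10.1% and 35.5 ± 4.06%, reversed in Fosl2F/F 1) or in cumulus-like cells (12.5% and 12.6%, means of 2 and 4 libraries). The mitotic-like class pools 2 clusters, described below, that differ in both genes. One held Inhba at 1051 to 3802 and Fst at 356 to 582 CPM, the other 90.2 to 176 and 174 to 322 CPM. How much of the mitotic-like gap comes from this pooling was not tested.

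Fstl3, the other activin-binding protein, was close to the limit of detection in GC-like cells, with 243 UMIs in all and 1.13, 1.23, 1.44 and 0.937 CPM. It was low outside GC-like cells as well, with its highest levels among tested named classes at 6.02 ± 1.58 CPM in pericyte or smooth muscle-like cells, 5.12 ± 2.24 in theca-like, 3.93 ± 1.49 in epithelial-like and 3.26 ± 0.58 in stromal-like cells, and with lower levels than in GC-like cells as a whole in endothelial-like (0.862), NK or T-like (0.348) and macrophage-like cells (0.284). No Fstl3 UMI was found in dendritic-like, lymphatic endothelial-like or oocyte-like cells, where a count of 0 allows up to 1.22, 1.49 and 4.80 CPM (3 UMIs over the 4 libraries, counting error only).

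Across the ovary the subunits and Fst were led by GC-like cells. The highest mean outside them among the named types was 618 CPM for Inha in theca-like cells, 149 for Inhba in luteal-like cells, 57.1 for Inhbb in B lymphocyte-like cells (23 UMIs in all) and 62.7 for Fst in luteal-like cells. Luteal-like cells numbered 14 in Fosl2cKO 1 and oocyte-like cells 17 in Fosl2cKO 2, so both are described and were not tested. Unnamed cluster 19, which held 570 cells of low depth, had GC-like levels of all 4 genes, with Inha at 5715 ± 1273 CPM.

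**Figure D3:**
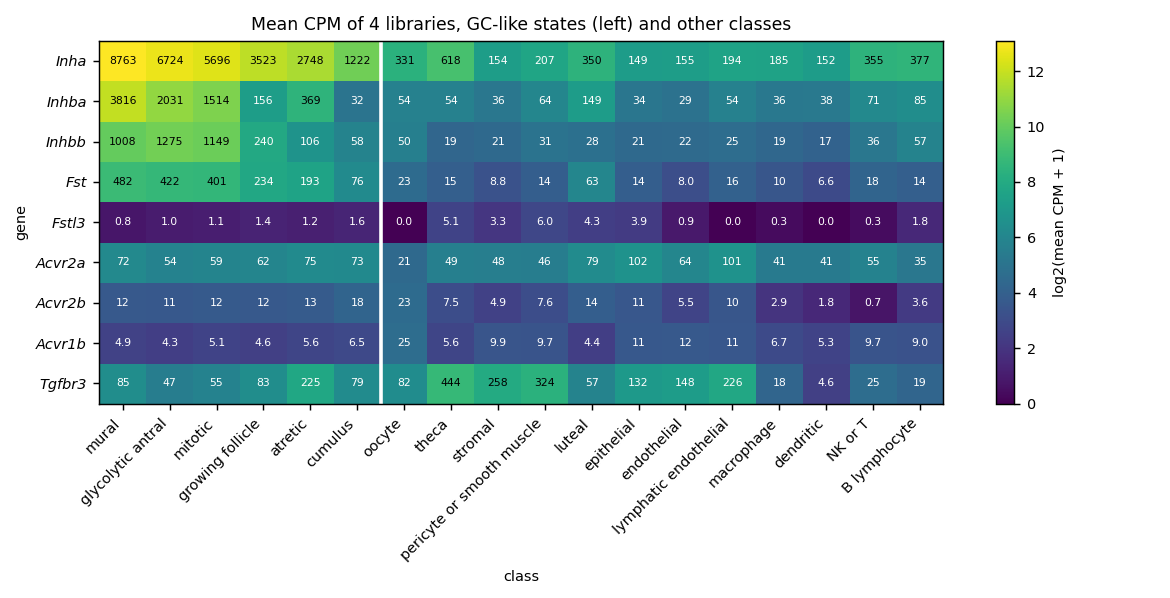
Mean CPM of 4 libraries (numbers in the cells, colour on the log2(CPM + 1) scale) of the 9 genes in 6 GC-like states, left of the white line, and in 12 other named classes. Inha, Inhba, Inhbb and Fst are highest in GC-like states, while Tgfbr3 is highest in theca-like cells at 444 CPM and Acvr2a runs from 21.4 CPM in oocyte-like to 102 in epithelial-like cells.

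Theca-like cells joined a cluster of 1193 cells led by Cyp17a1, the androgen-making lyase of the theca, and a cluster of 3809 cells led by Abcb1b, Dync1i1 and Gpx3, with Star among its leading genes and little Cyp17a1 (0.538 to 111 CPM). Their Inha level was 1205, 465, 298 and 505 CPM, which was 11.7 ± 3.85% of the GC-like level of the same library. Of the GC-like markers, Fshr, Hsd17b1, Cyp19a1, Serpine2 and Nap1l5 stood at 1.71 to 3.51% of their GC-like level in the same cells (means of 4 libraries), and Foxl2 stood at 42 ± 1.35%. Inhba stood at 3.19 ± 1.53% and Inhbb at 2.68 ± 0.75%. There were 8.41, 17.5, 18.1 and 17.1 Inha UMIs per Inhba UMI in theca-like cells, against 2.75, 4.12, 4.66 and 4.10 in GC-like cells, 4.31 ± 0.61 in stromal-like and 5.51 ± 1.66 in macrophage-like cells. In each library the theca-like ratio was above those 3 classes. It was not above every group of GC-like cells. By mean levels, cumulus-like cells (Inha 1222, Inhba 31.8 CPM) and growing follicle-like cells (3523 and 156 CPM) held more Inha relative to Inhba. Theca-like cells held 618 and 53.9 CPM. The Amh-high cluster of mitotic-like cells, described below, had 28.5, 35.3, 19.0 and 24.3 Inha UMIs per Inhba UMI. The Cyp17a1-led cluster supplied 49.2, 28.6, 12.6 and 41.5% of the theca-like UMIs, so the class is a mix that differs by library. Inha stood at 1433, 546, 272 and 492 CPM in that cluster and at 984, 432, 302 and 514 CPM in the larger one. Inha UMIs per Inhba UMI were 8.09, 18.9, 6.76 and 10.9 in the Cyp17a1-led cluster and 8.91, 16.9, 23.2 and 28.1 in the larger one, in each library above the ratio of GC-like cells as a whole. Cyp17a1 stood at 4870, 2760, 82.1 and 2422 CPM in the cluster it led, so the values of Fosl2cKO 1 there come from cells low in Cyp17a1. Thinned theca-like cells held Inha in 53.5 ± 13.6%, against 27.6 ± 15.1% of macrophage-like cells.

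**Figure D4:**
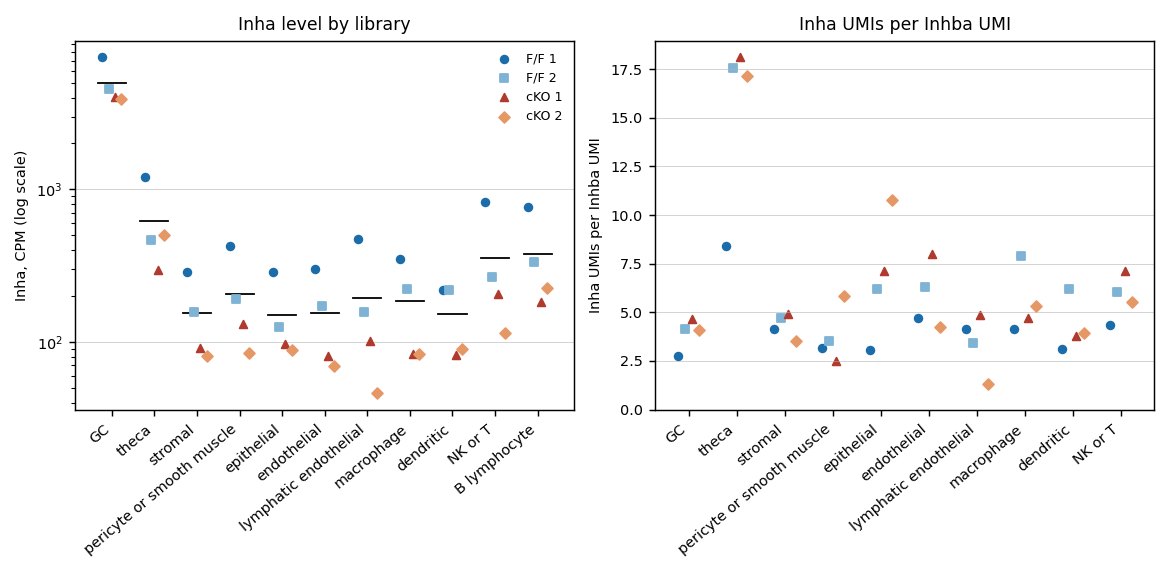
Inha level in CPM on a log axis by class (left) and Inha UMIs per Inhba UMI (right), with 1 point per library and black lines at the mean of 4 libraries on the left. Theca-like cells sit above the other classes outside GC-like cells in Inha UMIs per Inhba UMI, at 15.3 on average against 3.91 in GC-like cells as a whole, and in most classes on the left the Fosl2F/F 1 point is highest. The GC-like states are not drawn singly, and by mean levels cumulus-like and growing follicle-like cells held more Inha relative to Inhba than theca-like cells.

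Acvr2a, the more abundant of the type II receptors, was even across GC-like states, from 54.2 ± 11 CPM in glycolytic antral-like to 75.1 ± 11.5 in atretic-like cells. Mural-like cells held 53.5, 80.1, 87.7 and 66.0 CPM and cumulus-like cells 52.6, 80.6, 83.1 and 74.0, a log2 difference of -0.02 ± 0.10. The type II receptor was as high outside the follicle, at 102 ± 24.1 CPM in epithelial-like and 101 ± 24.6 in lymphatic endothelial-like cells. Acvr2b, the second type II receptor, held 11.6 ± 1.37 CPM in mural-like and 17.5 ± 5.81 in cumulus-like cells and was lower in mural-like cells in 4 of 4 libraries. It supplied 14.1 to 19.4% of the type II receptor UMIs in the 6 states. Acvr1b, the type I receptor, held 4.34 to 6.54 CPM in the states and 11.7 ± 1.53 CPM in endothelial-like cells.

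Tgfbr3, betaglycan, was led by other classes than the subunits, and over the 21 class means its log2(CPM + 1) had a Pearson's r of 0.005 with Inha and -0.05 with Inhba. Theca-like cells were highest, with 401, 413, 471 and 491 CPM (444 ± 43.7), above pericyte or smooth muscle-like cells (324 ± 49.3) in 4 of 4 libraries and without overlap. Stromal-like cells held 258 ± 45.5 CPM and lymphatic endothelial-like cells 226 ± 43.8. Among the named GC-like states atretic-like cells stood apart with 288, 232, 193 and 189 CPM (225 ± 45.8). The unnamed GC-like cluster was close to them, at 0.442 Tgfbr3 UMIs per thinned cell against 0.470 in atretic-like cells (means of 4 libraries). Mural-like cells held 76.6, 36.9, 147 and 78.0 CPM and cumulus-like cells 79.1 ± 11.8. Every atretic-like library lay above every library of these 2 states. The immune classes held the least, from 4.62 CPM in dendritic-like to 24.9 in NK or T-like cells.

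Over the means of 21 classes, the genes whose log2(CPM + 1) was most like each of the 4 GC-led genes were drawn from 9028 genes with at least 50 CPM in some class. Inha was closest to Hsd17b1, the estradiol-making dehydrogenase (Pearson's r = 0.969), the FSH receptor Fshr, Fst, Nppc and Fam13a. Inhba was closest to Nap1l5 (0.966), the aromatase gene Cyp19a1, Hsd17b1, Inhbb and Tmsb15b2. Inhbb was closest to Nap1l5 (0.977), Trappc9, Hsd17b1, Cyp19a1 and Inha, and Fst to Fshr (0.972), Hsd17b1, Mpped2, Tox2 and Masp1. These are descriptions over 21 classes that share their 4 libraries, and Hsd17b1, Fshr, Nap1l5 and Cyp19a1 were among the markers that named GC-like cells. Cyp19a1 and Nppc were also among the markers that named mural-like cells.

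The comparison of Fosl2cKO with Fosl2F/F libraries asked whether the levels of these genes within a class differ by genotype. Counts were summed per library and class and tested by quasi-likelihood in edgeR, with p-values adjusted over all genes of the class (Benjamini-Hochberg). To be called, a gene had to reach an adjusted p below 0.1 and differ by more than 0.25 on the log2 scale. Of 155 tests of a gene in a class, 4 passed, and all 4 were lower in the Fosl2cKO libraries. Over all genes and the 21 classes, 0.0941% of the tests passed. None of the 65 tests in GC-like cells or their states passed, with 11 at an unadjusted p under 0.05 (5.67% of all genes there had such a p). Among all genes, 0.0058% passed in GC-like cells as a whole, 0.0079% in mural-like, 0.122% in cumulus-like, 0.008% in growing follicle-like, 0.00685% in mitotic-like, 0.00823% in glycolytic antral-like and 0.00767% in atretic-like cells, so that few genes of any kind could be called there. Other tools, filters, cell sets and library sets called between 1 and 30 of the tests of the 9 genes, and between 0 and 9 of those in GC-like cells or their states.

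In the 3 states with the most alpha subunit, Inha lay lower in both Fosl2cKO libraries than in both Fosl2F/F libraries, without passing the test. Of the other states, 1 separated in the opposite direction, and in 2 the groups overlapped. With so few libraries per group such a separation is common by chance. The share of all genes that separate this way was not counted, here or where it is named elsewhere. The log2 fold change of Inha was -0.71 ± 0.25 (SE) in mural-like cells, -0.59 ± 0.19 in glycolytic antral-like and -0.68 ± 0.17 in mitotic-like cells, with adjusted p of 0.925, 0.478 and 0.469 by edgeR. The mitotic-like class joined a cluster of 2100 cells led by Ube2c and Ccnb1 and one of 1048 cells led by Top2a and Mki67 in which Amh, a product of GCs of growing follicles, was higher (430 to 512 against 19.6 to 279 CPM). In the first, the Amh-low cluster, Amh stood at 19.6, 98.7, 279 and 152 CPM, higher in both Fosl2cKO libraries. Whether the mix inside that cluster differs by genotype was not tested. The Amh-high cluster supplied 23.3, 33.7, 42.1 and 38.8% of the mitotic-like cells, more in both Fosl2cKO libraries, a difference that was not tested. Taken alone, the Amh-low cluster held Inha at 9896, 7139, 5270 and 5227 CPM (-0.74 ± 0.18, edgeR adjusted p = 0.346) and the Amh-high cluster at 2571, 3620, 3355 and 3140 CPM (0.03 ± 0.25). In GC-like cells as a whole Inha stood at 7330, 4576, 4007 and 3919 CPM, a log2 fold change of -0.63 ± 0.28. Fosl2F/F 1 was the highest library, and without it the log2 fold change was -0.18 in GC-like cells, -0.40 in mural-like, -0.24 in glycolytic antral-like and -0.43 in mitotic-like cells. In glycolytic antral-like cells Inha was called in 4 of 13 alternatives: without Fosl2F/F 2 (-0.87), without Fosl2cKO 1 (-0.57), without Fosl2cKO 2 (-0.62) and with no filter on low counts (-0.60). It was called in 1 of 13 in mitotic-like and in 0 of 13 in mural-like cells. The log2 fold change of Inha was 0.04 ± 0.22 in growing follicle-like, 0.11 ± 0.27 in atretic-like and -0.36 ± 0.29 in cumulus-like cells.

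The Inhba differences lay in opposite directions in different states, and none passed the edgeR test. Mitotic-like cells held 2817, 1508, 693 and 1039 CPM (log2 fold change -1.35 ± 0.33, edgeR adjusted p = 0.45) and cumulus-like cells 62.2, 31.1, 20.4 and 13.6 CPM (-1.51 ± 0.34, adjusted p = 0.208), with both Fosl2cKO libraries below both Fosl2F/F libraries in each. Within the mitotic-like class, the Amh-low cluster held 3802, 2212, 1051 and 1662 CPM (-1.19 ± 0.31, edgeR adjusted p = 0.37). The Amh-high cluster, whose share was higher in both Fosl2cKO libraries, held 90.2, 103, 176 and 129 CPM (0.62 ± 0.21, edgeR adjusted p = 0.767). Growing follicle-like cells held 88.0, 93.6, 267 and 177 CPM (1.2 ± 0.24, adjusted p = 0.345), with both Fosl2cKO libraries above. The level of macrophage-like cells was 84.5, 28.2, 17.8 and 15.6 CPM, so the growing follicle-like level of Fosl2F/F 1 was close to that of a class outside GC-like cells. In mural-like cells, the state with the highest Inhba level, the groups overlapped (-0.57 ± 0.29, adjusted p = 1.0). The cumulus-like level lay at that of non-GC classes, where Inhba differed by as much (-1.80 ± 0.48 in macrophage-like cells, a median of -1.67 over the 13 classes outside GC-like cells), and the part of free GC RNA in it was not tested. DESeq2 called the cumulus-like difference (adjusted p = 0.0185, with the same limit), the growing follicle-like difference (0.0034) and the mitotic-like difference (0.00174). Over 13 alternatives Inhba was called in 6 in cumulus-like cells (log2 fold change from -3.37 to -0.88), in 3 in growing follicle-like (0.49 to 1.45), in 2 in mitotic-like (-1.74 to -0.80) and in 3 in glycolytic antral-like cells (-1.34 to -0.20). The leave-outs that gave a call were those of either Fosl2cKO library in cumulus-like cells, of Fosl2cKO 2 in growing follicle-like cells, and of Fosl2F/F 2 or Fosl2cKO 2 in glycolytic antral-like cells. Without Fosl2F/F 1 the log2 fold change was -0.88 in cumulus-like, -0.80 in mitotic-like and -0.20 in glycolytic antral-like cells.

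The difference between states was itself tested, as the interaction of genotype and state with library as a term in edgeR. Mural-like cells were compared with each of the other 5 states in 42 tests, of which 0 passed, as did 0% of all genes tested in these pairs. Of the 42, 7 had an unadjusted p under 0.05, as did 3.37% of all genes tested. The remaining pairs of states were added after the data had been seen. Over all 15 pairs, 1 of 131 tests passed (0.0682% of all genes tested): the effect on Inhba in growing follicle-like cells minus that in mitotic-like cells was 2.52 ± 0.38 on the log2 scale (edgeR adjusted p = 0.0431), in a pair of states in which 1.01% of all genes passed. With each library left out in turn it lay between 1.95 and 3.1, at adjusted p from 1.88e-11 to 0.0360, where the lone library of a group is taken to vary like the others. The Amh-high share of mitotic-like cells was higher in both Fosl2cKO libraries, a difference that was not tested. The interaction test was therefore repeated on each mitotic-like cluster alone, also after the data had been seen. Against the Amh-low cluster the difference was 2.37 ± 0.39 (edgeR adjusted p = 0.0857, with 0.301% of all genes passing), and against the Amh-high cluster 0.56 ± 0.11 (adjusted p = 0.0105, with 0.716% passing). Amh was higher in both Fosl2cKO libraries inside the Amh-low cluster too, so that repeat does not settle the part of the mix. In the Amh-high cluster Inhba was also higher in both Fosl2cKO libraries.

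Inhbb followed the same pattern in growing follicle-like cells with more spread, at 53.9, 150, 529 and 228 CPM (log2 fold change 1.83 ± 0.50, edgeR adjusted p = 0.571). Both Fosl2cKO libraries were above both Fosl2F/F libraries. The log2 fold change ran from 1.13 to 2.67 over 13 alternatives and was called in 2, one of them without Fosl2cKO 2 (2.30, adjusted p = 4.66e-07). In mural-like cells Inhbb did not separate the groups (0.04 ± 0.32). The log2 fold change of Fst was -0.25 ± 0.22 in mural-like, -0.28 ± 0.21 in mitotic-like, 0.27 ± 0.22 in growing follicle-like and 0.01 ± 0.24 in cumulus-like cells. None of these passed the edgeR test, and 0 of 13 alternatives called Fst in any of these states. In unnamed cluster 8, led by Hsd17b7 and Runx2, Fst held 44.6, 64.4, 259 and 167 CPM (1.79 ± 0.62, edgeR adjusted p = 0.791), where Fosl2F/F 1 supplied 61 cells with a median of 1462 UMIs. In luteal-like cells, which were not tested, Fst stood at 23.6, 9.20, 121 and 96.6 CPM, higher in both Fosl2cKO libraries. In the 14 cells of Fosl2cKO 1 GC-like markers were higher too. Fshr stood at 8.16, 9.52, 31.4 and 4.57% of its GC-like level and Nap1l5 at 2.56, 1.71, 27.1 and 2.97%.

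The receptors did not pass in any class. Acvr2a had log2 fold changes of 0.04 to 0.22 in the 6 states. Those of Acvr2b ran from -0.04 to 0.62, with the highest in glycolytic antral-like cells (0.62 ± 0.26, edgeR adjusted p = 0.599). Tgfbr3 in mural-like cells had 0.93 ± 0.41 (adjusted p = 1.0), with Fosl2cKO 1 highest and Fosl2F/F 2 lowest, and in atretic-like cells -0.53 ± 0.22 (adjusted p = 0.879). Theca-like cells, its highest class, had 0.21 ± 0.26.

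**Figure D5:**
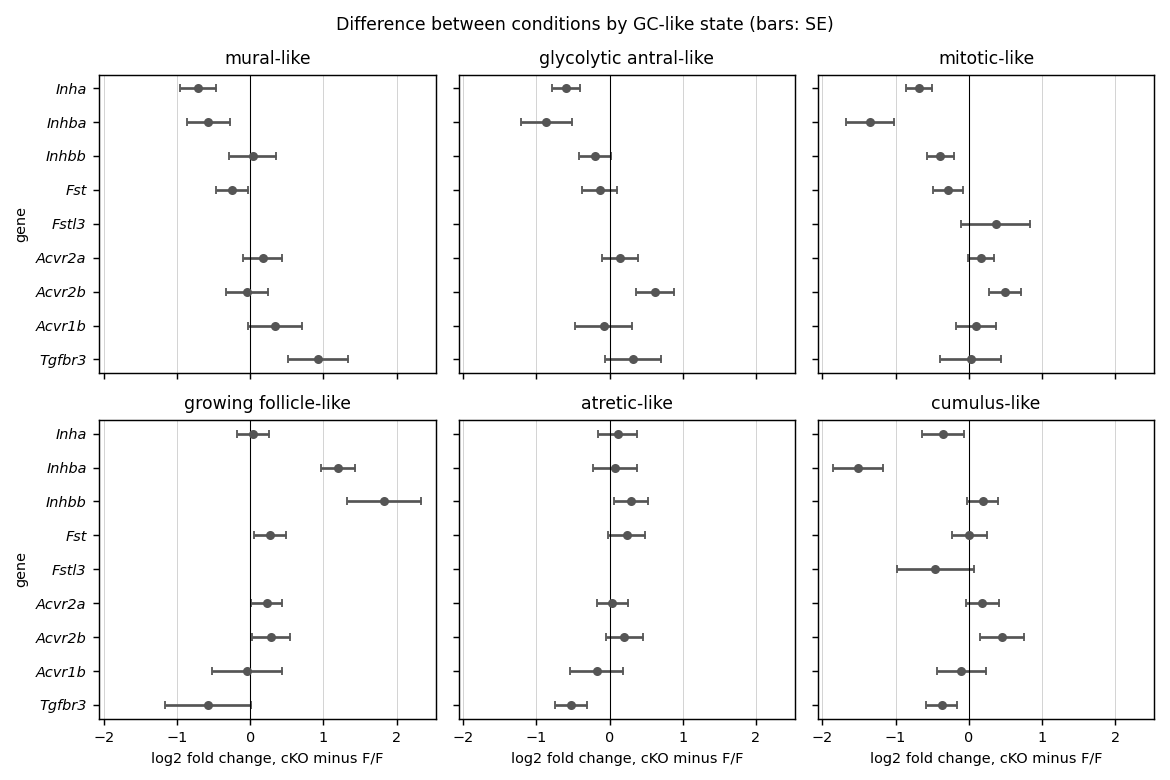
Log2 fold change (Fosl2cKO minus Fosl2F/F) of the 9 genes in 6 GC-like states, with bars of 1 SE on either side. No point is called, the Inhba point is at -1.51 in cumulus-like and at 1.2 in growing follicle-like cells, and genes under the count filter have no point.

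All 4 calls lay outside GC-like cells, in classes where these genes are scarce. Inha in endothelial-like cells stood at 299, 171, 80.8 and 69.3 CPM (log2 fold change -1.64 ± 0.29, edgeR adjusted p = 0.0246, with 0.257% of all genes called). Inha in macrophage-like cells stood at 351, 222, 83.1 and 82.7 CPM (-1.84 ± 0.33, adjusted p = 0.0787, 0.269% called). In B lymphocyte-like cells Inha stood at 763, 335, 183 and 226 CPM on 104, 11, 13 and 31 UMIs (-1.65 ± 0.39, adjusted p = 0.0601, 0.491% called). In NK or T-like cells Inhba fell by 2.37 ± 0.50 (adjusted p = 0.0738, 0.528% called), from 192 and 43.6 to 29.1 and 20.7 CPM, on 138, 17, 31 and 15 UMIs. In each the Fosl2cKO libraries lay below both Fosl2F/F libraries. The endothelial-like call held in 12 of 13 alternatives and was lost with doublets kept (edgeR adjusted p = 0.285). The NK or T-like call held in 12 of 13 and was lost without Fosl2F/F 1, where the log2 fold change was -0.81 (0.654). The macrophage-like call held in 9 of 13 and was lost without Fosl2cKO 1 or Fosl2cKO 2, with doublets kept and without TMM scaling. Over these 13 alternatives its log2 fold change lay between -2.18 and -1.37. The B lymphocyte-like call held in 5 of 11 and was lost without Fosl2F/F 1 (-0.65, 0.869), Fosl2cKO 1 (0.165) or Fosl2cKO 2 (0.151), in DESeq2, without TMM scaling and without the filter on low counts.

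By their sum, markers of GC-like cells were also lower in the Fosl2cKO libraries in endothelial-like, macrophage-like and NK or T-like cells. In B lymphocyte-like cells the sums of the groups overlapped. The summed level of the 8 GC-like markers was 260, 182, 105 and 90.9 CPM in endothelial-like, 241, 170, 96.6 and 110 in macrophage-like, 634, 257, 241 and 151 in NK or T-like and 661, 213, 197 and 299 CPM in B lymphocyte-like cells, with none of the 8 at 0 in every library. All 8 had a lower mean in the Fosl2cKO libraries in endothelial-like, macrophage-like and NK or T-like cells, and 6 of 8 in B lymphocyte-like cells. In that order of classes, 5, 4, 4 and 1 of the 8 lay lower in both Fosl2cKO libraries than in both Fosl2F/F libraries. Of the 13 classes outside GC-like cells, the sum was lower in both Fosl2cKO libraries than in both Fosl2F/F libraries in 5: endothelial-like, macrophage-like, NK or T-like, dendritic-like and theca-like cells. It was 1092, 661, 800 and 1052 CPM in epithelial-like cells and 1195, 374, 700 and 863 in unnamed cluster 8. Over these 13 classes, which include unnamed cluster 19 with its GC-like levels, Inha had a lower fitted level in 13 of 13, Inhba in 13 of 13 and Inhbb in 11 of 11 tested, with median log2 fold changes of -1.45, -1.67 and -0.97, against -0.003 over all genes and classes. Fst was lower in 9 of 10, Fstl3 in 3 of 5 and Tgfbr3 in 5 of 11. The receptors were mostly higher, with Acvr2a lower in 4 of 12, Acvr2b in 1 of 7 and Acvr1b in 0 of 8. Over all genes and the 21 classes, 116606 of 231614 tests had a lower fitted level. The classes share the same 4 libraries, so they are not independent of each other. The share of all genes that were lower in every one of them was not counted. As a share of the GC-like level of the same library, Inha in endothelial-like cells was 4.09, 3.75, 2.02 and 1.77%. The part of free GC RNA in these differences was not tested.

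The genes around this pathway were counted from a list of 29 activin signalling and processing genes. Of these, 24 were tested in GC-like cells and 21 in mural-like cells, and 0 passed by edgeR in either, with 2 at an unadjusted p under 0.05 in each (4.80% of all genes in GC-like and 4.62% in mural-like cells had such a p). Their median log2 fold change was -0.02 in GC-like cells, as for all genes (-0.02). Smad7, the inhibitory Smad, stood at 48.1, 51.7, 92.9 and 134 CPM in GC-like cells (1.16 ± 0.22, edgeR adjusted p = 0.464), with both Fosl2cKO libraries above both Fosl2F/F libraries. Smad4, the shared partner of the receptor Smads, had 0.36 ± 0.15. By state, Smad3 was higher in cumulus-like (348 CPM) than in mural-like cells (107 CPM), and Pcsk6, a proprotein convertase, stood at 387 against 11.9 CPM (means of 4 libraries), in contrast to the beta subunits, though Pcsk6 is a marker that named cumulus-like cells.

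A list of 12 GC regulators and targets also had 0 calls in GC-like and in mural-like cells, with 2 and 3 at an unadjusted p under 0.05. Lhcgr, the LH receptor, stood at 671, 282, 176 and 139 CPM in mural-like cells (-1.65 ± 0.40, edgeR adjusted p = 0.582) and Cyp19a1 at 526, 169, 83.5 and 172 CPM (-1.50 ± 0.55). Lhcgr was lower in both Fosl2cKO libraries than in both Fosl2F/F libraries, and the Cyp19a1 levels of the groups overlapped. Esr2, the estrogen receptor of GCs, was 0.52 ± 0.29 on the log2 scale and Crem -0.65 ± 0.23 in mural-like cells.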

How the data were processed

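The authors aligned the reads with Cell Ranger to GRCm38 and deposited UMI counts per gene and barcode, whole numbers without normalization, for each of the 4 libraries. The submitters' processing notes name Cell Ranger and Seurat 4.1.0, and the study's methods name CellBender for the removal of free RNA. Whether the deposited counts hold that correction is not given in the sources used here. Each of the 4 libraries entered the analysis.

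A barcode was kept if it held 500 genes or more, over 1000 UMIs, less than 10% of UMIs from mitochondrial genes and less than 0.1% from hemoglobin genes, following the study's methods, and the Scrublet scores removed the top 0.8% of cells per 1000 cells in a library as doublets (5.74 to 19.4%). Cells were normalized with sctransform 0.4.2, integrated and clustered in Seurat 5.3.0, without the 9 genes. A cluster took a name at a marker score of 0.2 or more with a lead of 0.1 and at least 3 markers above 0.25 of their highest cluster level, a rule set after the clusters had been seen. Counts were summed per library and class, and the 21 classes with at least 20 cells in every library were tested with edgeR 4.0.16 (quasi-likelihood, TMM, Benjamini-Hochberg), with DESeq2 1.42.0 as an alternative, after a check on simulated counts. Levels are also described for classes with at least 10 cells.

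Named are the 9 genes in every class, the 5 genes most correlated with each of Inha, Inhba, Inhbb and Fst, and at most 4 examples per pathway list and class. The members and lists were chosen with earlier results of these data known. Errors over libraries are SDs unless named as SE, and depth limits the genes near 1 CPM. Replicate numbers did not pair the samples in the labels.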

Additional observations from a re-analysis of the deposited data

Results flagged for a closer look

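One difference between states was marked for a closer look, because the genotype effect on a gene differed between 2 GC-like states by a test of the difference itself. The effect on Inhba in growing follicle-like cells minus that in mitotic-like cells was 2.52 ± 0.38 on the log2 scale (SE, edgeR's quasi-likelihood interaction test, adjusted p = 0.0431). Inhba was higher in both Fosl2cKO libraries of growing follicle-like cells and lower in both of mitotic-like cells. Leaving out Fosl2F/F 1, Fosl2F/F 2, Fosl2cKO 1 or Fosl2cKO 2 gave 2.07, 2.97, 1.95 and 3.1. The pairs of states that do not hold mural-like cells were added after the data had been seen, and this was 1 of 131 tests of the 9 genes. The mitotic-like class joined an Amh-low and an Amh-high cluster, and the Amh-high cluster supplied 23.3 and 33.7% of its cells in the Fosl2F/F and 42.1 and 38.8% in the Fosl2cKO libraries. Inside the Amh-low cluster Amh stood at 19.6, 98.7, 279 and 152 CPM, also higher in both Fosl2cKO libraries. Against the Amh-low cluster alone the difference was 2.37 ± 0.39, and against the Amh-high cluster alone 0.56 ± 0.11, both at an edgeR adjusted p under 0.1. In the Amh-high cluster Inhba was higher in both Fosl2cKO libraries too (90.2, 103, 176 and 129 CPM). There the effects differ in size and not in direction. In Fosl2F/F 1 the growing follicle-like Inhba level (88.0 CPM) was close to that of macrophage-like cells (84.5 CPM). In neither state did the genotype difference of Inhba pass the edgeR test alone.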

How the results depend on the processing

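The 4 calls of the 9 genes over all classes were 11 with DESeq2, 30 with no filter on low counts, 2 without TMM, 10 with doublets kept and 1 at an adjusted p under 0.05 with no minimum fold. Without 1 library they ranged from 3 to 20, at 20 without Fosl2F/F 2, 14 without Fosl2cKO 1 and 20 without Fosl2cKO 2. In GC-like cells as a whole 1 of all genes was called, against 170 with DESeq2, 262 with no filter and 0 to 142 without 1 library (0 without either Fosl2F/F library, 142 without Fosl2cKO 1 and 105 without Fosl2cKO 2). In mural-like cells 1 gene was called, against 74 with DESeq2, 314 with no filter, 2 with doublets kept, 2 in cells with over 2000 UMIs, 3 with finer clusters and 0 to 157 without 1 library (0 without either Fosl2F/F library, 146 without Fosl2cKO 1 and 157 without Fosl2cKO 2). The 9 genes had 0 calls in these 2 classes, 2 with no filter and 0 to 1 without 1 library (1 without Fosl2cKO 2, Tgfbr3 in mural-like cells at 1.29). The 2 calls with no filter were Inhba in GC-like cells (-1.12) and Tgfbr3 in mural-like cells (0.92). The interaction of mural-like cells with the other states had 0 calls, and 0 to 7 without 1 library (3 without Fosl2F/F 1, 7 without Fosl2F/F 2 and 3 without Fosl2cKO 2), leave-outs that were chosen after seeing the data. The log2 level difference of Inhba between mural-like and cumulus-like cells was 6.36 with doublets kept. Leaving out 1 library kept it between 6.80 and 7.28, and that of Inha between 2.71 and 2.97. The causes of these changes were not tested.

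The replicate numbers carry no pairing in the labels, and deviations of same-numbered libraries from their group means correlated at -0.35 in GC-like cells (8499 genes) and at -0.21 in mural-like cells (8084 genes). With the replicate block 11 tests of the 9 genes, 31 genes in GC-like cells and 2 in mural-like cells were called. Crossed numbers, chosen after seeing the data, gave 20, 73 and 14 calls.

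Of 221 refits of single-gene log2 fold changes in GC-like and mural-like cells, 198 kept direction and call, 3 became calls and 20 turned sign, all of values that were not called. Values without 1 library are given as their lowest and highest. In GC-like cells Inhbb ranged from -0.490 to 0.141 (0.141 without Fosl2F/F 1), Fst from -0.437 to 0.142 (0.00659 without Fosl2cKO 1), Fstl3 from -0.337 to 0.233, Acvr2a from -0.00257 to 0.374 and Tgfbr3 from -0.409 to 0.489. There, Fstl3 turned to 0.0121 without TMM and 0.0214 in cells with over 2000 UMIs, and Tgfbr3 to 0.00511 without TMM and 0.0202 with the replicate block. In mural-like cells Inhbb ranged from -0.531 to 0.441, Acvr2a from -0.0891 to 0.471 and Acvr2b from -0.235 to 0.145. There, Inhbb turned to -0.0365 with the replicate block, and Acvr2b to 0.000564 without TMM and 0.0638 with coarser clusters. The median of all genes moved by over 0.1 without TMM in 2 classes, B lymphocyte-like cells (0.10) and unnamed cluster 8 (0.12). Depth limits Fstl3 and Acvr1b and the small immune classes.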

Other observations

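The pathway genes also differed between GC-like states in ways that are not part of the comparison by genotype. Tgfbr3l, a relative of betaglycan, stood at 53.3 CPM in cumulus-like cells and at 2.56 CPM in mural-like cells (means of 4 libraries), and Zfyve9, which anchors Smads for the receptor, at 134 against 68.5 CPM. Bambi, a decoy receptor of the family, stood at 35.9 CPM in cumulus-like and 21.6 CPM in mural-like cells. Inhbc and Inhbe, the beta subunit genes best known from the liver, were at 0.10 CPM or less in all 6 GC-like states, and Mstn had no UMI there. Among receptors, Acvr1 (54.3 CPM in mural-like and 48.5 CPM in cumulus-like cells) was more abundant than Acvr1b, and Acvr1c was at 1.78 and 3.63 CPM. These are descriptions of level with no test, since the clusters were made from the same cells.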
